A study of Mus musculus with 8 samples.

Results

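PETs joining different autosomes made up most of an RNA polymerase II (Pol II) ChIA-PET data set from mouse liver. ChIA-PET pulls down crosslinked chromatin with an antibody, ligates DNA ends held together in a complex through a linker, and sequences a tag from each side, so that each paired-end tag (PET) names a pair of genomic positions. The members described here were the PETs whose ends lay on different autosomes, chromosomes 1 to 19. There were 2173234 such PETs among 2753554 in all, or 78.9%. By experiment they numbered 325101 of 474478 (68.5%), 1209034 of 1438866 (84.0%) and 639099 of 840210 (76.1%).

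The mice were wild-type C57BL/6, 3 to 6 months old, kept in 12 h of light and 12 h of darkness with free access to food. Livers were collected at ZT06 or ZT18 (hours after lights on), and chromatin pooled from 3 to 7 livers was precipitated with 8WG16, an antibody to Pol II. Experiments 1 and 3 were crosslinked with 1.5 mM EGS, a protein crosslinker of longer reach, and 1% formaldehyde, and experiment 2 with 1% formaldehyde alone. Experiment 1 had 4 libraries and experiments 2 and 3 had 2 each, with both times in every experiment. The table marks the experiment and the linker of each PET but no library and no time, so day and night were not compared, and crosslinking and experiment cannot be told apart. Each experiment is therefore 1 pool. Intervals are 95% and cover counting error only.

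In an interphase nucleus each chromosome occupies its own territory, and contacts between chromosomes form where territories meet. Gene-rich, transcribed chromatin tends to lie towards the nuclear interior, and chromosomes that carry ribosomal RNA genes gather at nucleoli. In ligation assays such contacts are mixed with ligation between DNA from separate complexes, which joins ends in proportion to how many ends each place contributes. The comparisons below set the observed number of PETs against that proportional number.

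Each autosome's share of ends stood close to its length. Ends per Mb, relative to the autosome mean, ranged over 0.921 to 1.13, 0.887 to 1.06 and 0.915 to 1.17 in experiments 1, 2 and 3. Chromosome 11, gene-dense at 13.2 protein-coding genes per Mb, stood at 1.13, 1.06 and 1.17 in experiments 1, 2 and 3. Chromosome 7, with the highest gene density (14.0 per Mb), stood at 0.921, 0.887 and 0.944, below the mean in all 3 pools. Over the 19 autosomes, which share libraries and depth, the Spearman correlation of end density with gene density was 0.33, -0.05 and 0.55.

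No pair of autosomes departed detectably from the number its end totals gave. Expected numbers were fitted to all pairs of autosomes so that each chromosome kept its number of ends in that experiment. A pair held a median of 1835, 6803 and 3604 PETs in experiments 1, 2 and 3, and the 95% Poisson interval of such a count spans about -4.52 to 4.68%, -2.36 to 2.41% and -3.24 to 3.32%. The observed number was within 5% of the expected one for all but 6, 0 and 1 of the pairs. Deviations over all pairs were no larger than counting error: chi-square was 163, 123 and 165 on 152 degrees of freedom (adjusted p = 0.389, 0.962 and 0.389).

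The exact Poisson test, adjusted over 513 tests, called 0 pairs in each experiment (0%), and its lowest adjusted p was 0.603. At an unadjusted p under 0.05 it gave 8, 6 and 7 pairs. limma over the 3 pools called 0 pairs (0%), with 9 at an unadjusted p under 0.05 and a lowest adjusted p of 0.416. The deviations of a pair in one pool told little of those in another. The Pearson correlation of log2(observed/expected) over all pairs was -0.07 for experiments 1 and 2, 0.12 for 1 with 3, and -0.08 for 2 with 3.

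**Figure D1:**
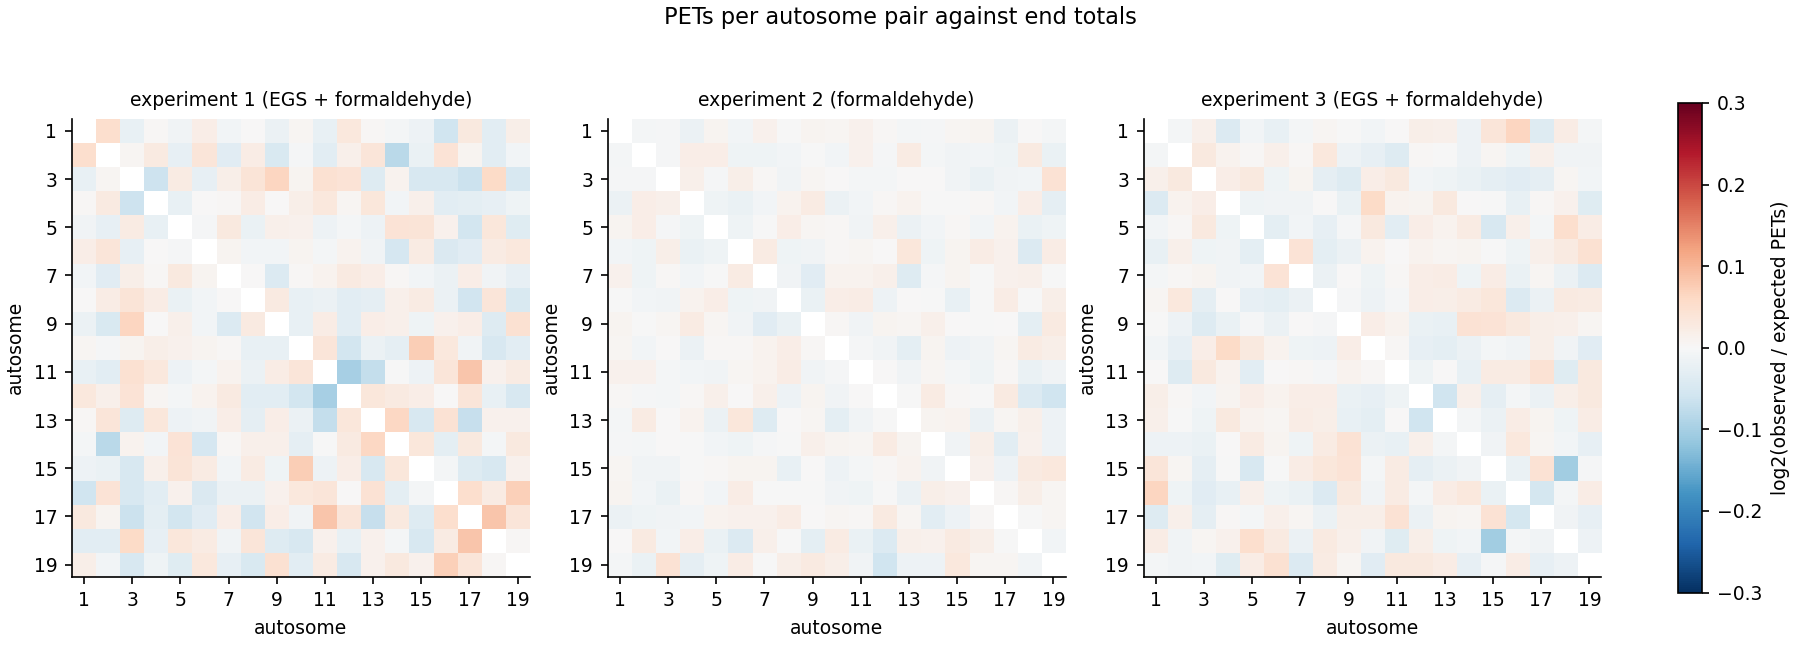
Each cell is a pair of autosomes and its colour is log2(observed/expected PETs), with expected numbers from end totals, for the 3 experiments. The colours stay pale throughout, with values between -0.10 and 0.08 in experiment 1, -0.06 and 0.04 in experiment 2, and -0.10 and 0.06 in experiment 3, and no block of chromosomes recurs in the 3 panels.

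The pairs with the most extreme means are given although none passed the test. Chromosomes 11 and 17, both gene-dense, were joined by 1566 PETs against 1479 expected in experiment 1, by 4875 against 4860 in experiment 2 and by 3137 against 3044 in experiment 3. Their mean log2 ratio was 0.04 ± 0.04 (SD over 3 pools; limma adjusted p = 0.416). The next highest were 6 with 19 (mean 0.03) and 16 with 19 (mean 0.03), above 1 in all 3 pools like 11 with 17. Over all pairs of autosomes, 12.3% were above 1 in all 3 pools and 11.1% were below 1 in all 3. The pairs named here were picked for their high means, which in part sets their agreement in sign. At the low end, chromosomes 15 and 18 were joined by 1055 PETs against 1091 expected, 4286 against 4206 and 2006 against 2156, for a mean of -0.04 ± 0.07. The interval of observed over expected for that pair included 1 in experiments 1 (0.910 to 1.03) and 2 (0.989 to 1.05). In experiment 3 it lay below 1 (0.890 to 0.972). Chromosomes 11 and 12 (mean -0.04) and 3 and 16 (mean -0.03) followed.

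Pairs grouped by gene density or by length stayed, within counting error, at the number expected from end totals. The 6 most gene-dense autosomes (2, 7, 9, 11, 17 and 19) form 15 pairs, whose PETs were 0.998, 0.998 and 0.999 times the expected number in experiments 1, 2 and 3 (intervals 0.986 to 1.01, 0.991 to 1.004 and 0.991 to 1.01). The 15 pairs of the 6 most gene-poor autosomes (1, 3, 12, 13, 14 and 18) had ratios of 1.01, 1.000 and 1.000. The 15 pairs of the 6 shortest autosomes had 1.01, 1.001 and 0.992, and those of the 6 longest 1.001, 0.999 and 0.999. Chromosomes 12, 15, 16, 18 and 19, which carry ribosomal RNA gene arrays in this strain, form 10 pairs, with ratios of 0.999, 1.000 and 0.991. All 21 class ratios, including gene-dense with gene-poor and long with short, had an exact Poisson adjusted p of 0.968. With expected numbers from partners shuffled within experiment and linker, some intervals of experiment 3 lay below 1. These were gene-dense with gene-poor (0.987 to 0.998), both short (0.974 to 0.997) and ribosomal RNA gene chromosomes (0.971 to 0.999). The median ratio over all pairs was then 0.993 in that pool. No class passed the exact Poisson test (lowest adjusted p = 0.114).

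Position within the chromosome was then compared inside each linker and ordered chromosome pair, so that differences in end density between chromosomes and linkers drop out. The expected number is the exact mean over all ways of shuffling partners inside these strata, and the common odds ratio (Mantel-Haenszel) says how much likelier a class end is to have a class partner. Mouse autosomes are acrocentric, with the centromere before the first base. With both ends in the first 10 Mb, the odds ratio was 1.01 (0.940 to 1.08), 1.02 (0.983 to 1.06) and 0.978 (0.928 to 1.03) in experiments 1, 2 and 3. With both in the last 10 Mb it was 1.01, 1.01 and 0.994, and with one end in each 0.971, 0.986 and 1.03. None of these 9 comparisons passed the Cochran-Mantel-Haenszel test after adjustment over 21.

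Ends in gene-rich 1 Mb windows were joined to each other slightly more often than shuffled partners. For the windows with the most gene boundaries, the upper of 3 equal classes, the odds ratios in experiments 1, 2 and 3 were 1.05 (1.03 to 1.07), 1.01 (1.004 to 1.02) and 1.01 (1.003 to 1.02), with adjusted p-values of 3.48e-09, 0.0178 and 0.0361. For the lowest class it was 1.05 (1.03 to 1.07), 1.01 (0.997 to 1.01) and 1.02 (1.003 to 1.03), past the test in experiments 1 and 3. Among PETs with neither end within 2.5 kb of a gene boundary the gene-rich odds ratios were 1.015 (0.995 to 1.04), 1.001 (0.991 to 1.01) and 1.016 (1.003 to 1.03), with adjusted p-values of 0.218, 0.879 and 0.0574. The value of experiment 3 was thus as large as over all its members (1.014) and missed the threshold. The gene-poor odds ratio of experiment 1 still passed among these PETs, at 1.03 (1.01 to 1.05; adjusted p = 0.0223). Each experiment merges libraries that cannot be separated here. Unequal shares of such ends between merged libraries raise these odds ratios by construction, also where no contact does.

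The clearest departure lay at genes themselves. Both ends within 2.5 kb of a boundary of a protein-coding gene were found in 8452 PETs against 7498 expected in experiment 1, in 9669 against 8246 in experiment 2 and in 10032 against 9588 in experiment 3. The odds ratios were 1.19 (1.16 to 1.22), 1.21 (1.19 to 1.24) and 1.06 (1.04 to 1.09), each past the test (adjusted p = 1.56e-38, 8.12e-65 and 8.41e-07). A chi-square test of equal odds ratios in the 3 pools gave an adjusted p of 2.72e-17. The limit from merged libraries holds for these odds ratios as well.

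**Figure D2:**
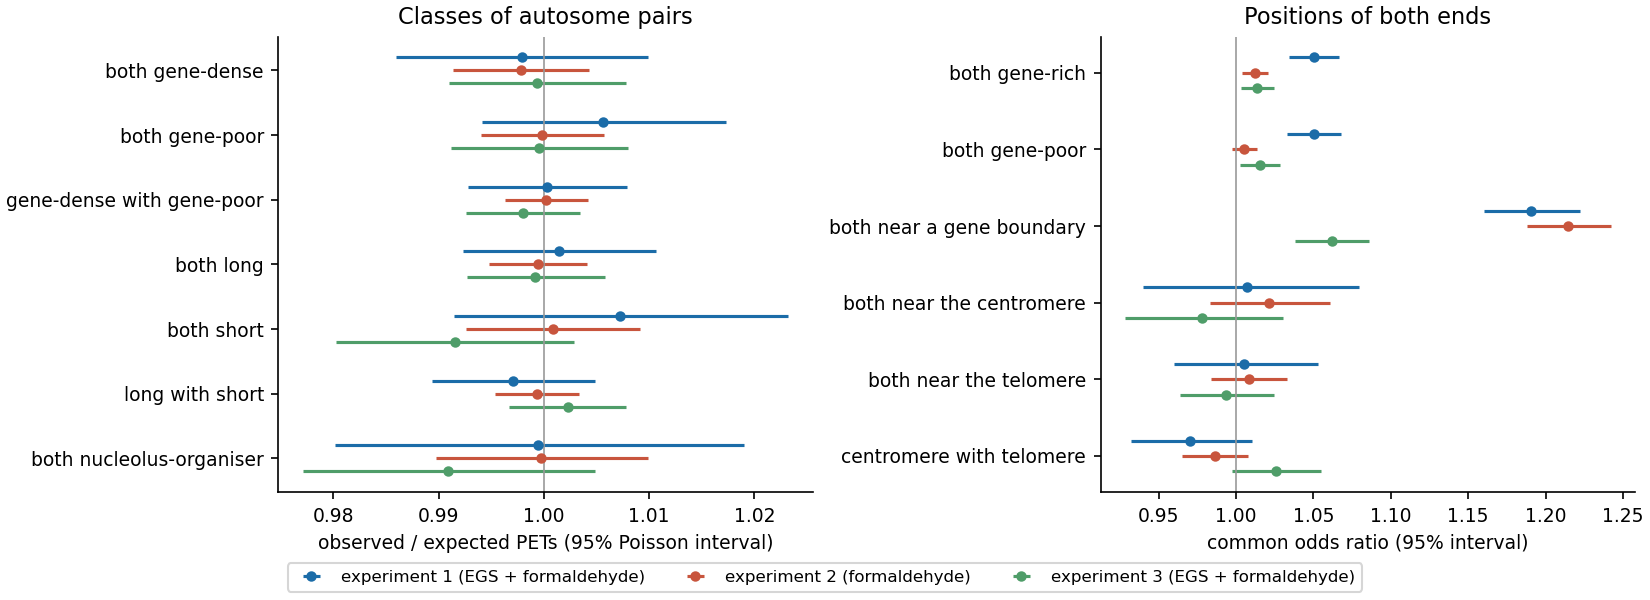
The left panel gives observed/expected PETs for classes of autosome pairs, with 95% Poisson intervals; the right panel gives the common odds ratio for both ends in a class of positions, with 95% intervals, for the 3 experiments in colour. Against end totals, all classes of chromosome pairs sit within 1% of 1, whereas ends near gene boundaries sit at 1.19, 1.21 and 1.06.

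The departure was larger at transcription start sites (TSSs). RefSeq promoters of build GRCm38.p6 gave 20085 TSSs of 16457 of the 20665 autosomal protein-coding genes. A promoter was called CpG-rich with a GC content of at least 55% and an observed-to-expected CpG ratio of at least 0.6 over 300 bases, which held for 42.2% of TSSs. Mammalian promoters of broadly used genes are often CpG-rich, whereas many liver-specific genes have promoters poor in CpG. The 4 promoters below show both kinds and were chosen after their values were seen: Errfi1, a feedback inhibitor of the EGF receptor, and Tob1, an antiproliferative protein, were among the 3 genes with the most TSS-to-TSS PETs, while Tat (tyrosine aminotransferase) and Alb (albumin) are hepatocyte genes. Capitals mark CpG dinucleotides, and each run is 5′ to 3′ on the gene's strand, from 250 bases before the TSS.
Errfi1, chr4:150854820-150855119, plus strand, 41 CpGs: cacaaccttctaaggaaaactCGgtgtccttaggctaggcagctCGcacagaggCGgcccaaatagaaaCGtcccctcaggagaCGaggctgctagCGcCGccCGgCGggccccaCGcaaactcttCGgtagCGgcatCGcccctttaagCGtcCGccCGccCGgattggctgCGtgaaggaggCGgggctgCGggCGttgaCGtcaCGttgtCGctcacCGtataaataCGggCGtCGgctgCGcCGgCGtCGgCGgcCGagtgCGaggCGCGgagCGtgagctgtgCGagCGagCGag
Tob1, chr11:94211204-94211503, plus strand, 40 CpGs: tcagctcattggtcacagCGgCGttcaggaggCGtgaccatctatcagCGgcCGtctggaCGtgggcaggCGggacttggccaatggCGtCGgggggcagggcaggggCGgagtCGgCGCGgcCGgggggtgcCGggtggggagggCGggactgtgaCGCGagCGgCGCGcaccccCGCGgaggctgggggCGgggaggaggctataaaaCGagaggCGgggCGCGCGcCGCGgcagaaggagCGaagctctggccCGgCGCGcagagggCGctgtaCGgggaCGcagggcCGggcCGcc
Tat, chr8:109990186-109990485, plus strand, 5 CpGs: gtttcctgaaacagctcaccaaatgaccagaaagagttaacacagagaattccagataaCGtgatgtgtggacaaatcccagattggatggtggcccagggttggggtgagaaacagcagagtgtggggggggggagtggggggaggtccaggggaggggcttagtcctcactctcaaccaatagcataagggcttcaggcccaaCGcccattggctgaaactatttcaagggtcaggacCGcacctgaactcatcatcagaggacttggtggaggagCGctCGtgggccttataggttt
Alb, chr5:90460620-90460919, plus strand, 3 CpGs: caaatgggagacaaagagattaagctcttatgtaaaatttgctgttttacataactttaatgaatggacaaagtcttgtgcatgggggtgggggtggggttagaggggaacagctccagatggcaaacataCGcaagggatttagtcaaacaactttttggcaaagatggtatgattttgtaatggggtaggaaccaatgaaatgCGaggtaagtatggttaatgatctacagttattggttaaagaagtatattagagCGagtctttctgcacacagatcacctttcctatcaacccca

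Single ends gathered at TSSs most in the dual-crosslinked pools. The promoters used here did not cover chromosome 18, and PETs with an end there were left out of all TSS values, leaving 2007328 members. Within 250 bp of a TSS, ends per base were 8.83, 2.64 and 6.11 times the mean in experiments 1, 2 and 3. Within 1 kb lay 7.00%, 2.5% and 4.83% of ends. Between 1 and 2.5 kb the density had fallen to 1.45, 0.992 and 1.29.

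Joining of TSS ends to each other had another order, highest in experiment 2. Both ends lay within 1 kb of a TSS in 1907 PETs against 1473 expected in experiment 1, in 1491 against 716 in experiment 2 and in 1625 against 1374 in experiment 3. The odds ratios were 1.36 (1.30 to 1.43), 2.23 (2.11 to 2.35) and 1.21 (1.15 to 1.27), with Cochran-Mantel-Haenszel p-values, adjusted over the 63 TSS comparisons, of 1.04e-33, 5.39e-194 and 3.77e-12. They differed between pools (chi-square test of equal odds ratios, adjusted p = 7.02e-62). The pool crosslinked with formaldehyde alone thus had the fewest ends at TSSs and the highest odds ratio between them. Each experiment merges libraries that the table does not separate. Merging libraries with unequal shares of TSS ends raises such a ratio by construction, also where no contact does, and in these data the 2 cannot be told apart. The linker subsets of experiment 2 had 3.25% and 2.29% of ends at TSSs, but the linker is held fixed in these ratios.

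The odds ratios fell with distance from the TSS. With both ends within 250 bp, PETs numbered 567 against 356 expected, 369 against 125 and 442 against 335, for odds ratios of 1.67, 3.10 and 1.34. At 250 to 500 bp the odds ratios were 1.27, 2.28 and 1.19, the last not past the test (adjusted p = 0.189). At 500 bp to 1 kb they were 1.22, 1.36 and 1.03, and only the value of experiment 2 passed (adjusted p = 0.0554, 0.00351 and 0.841). From 1 to 2.5 kb they were 1.08, 1.04 and 0.970, and none passed. Beyond that, 1 value of 9 passed, 1.13 at 2.5 to 5 kb in experiment 1 (adjusted p = 0.0215). Conversely, a TSS end was less often joined to an end over 25 kb from any TSS, with odds ratios of 0.871, 0.834 and 0.937. The number of TSS ends is held fixed in each stratum, so this deficit follows in part from the excess between TSS ends.

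**Figure D3:**
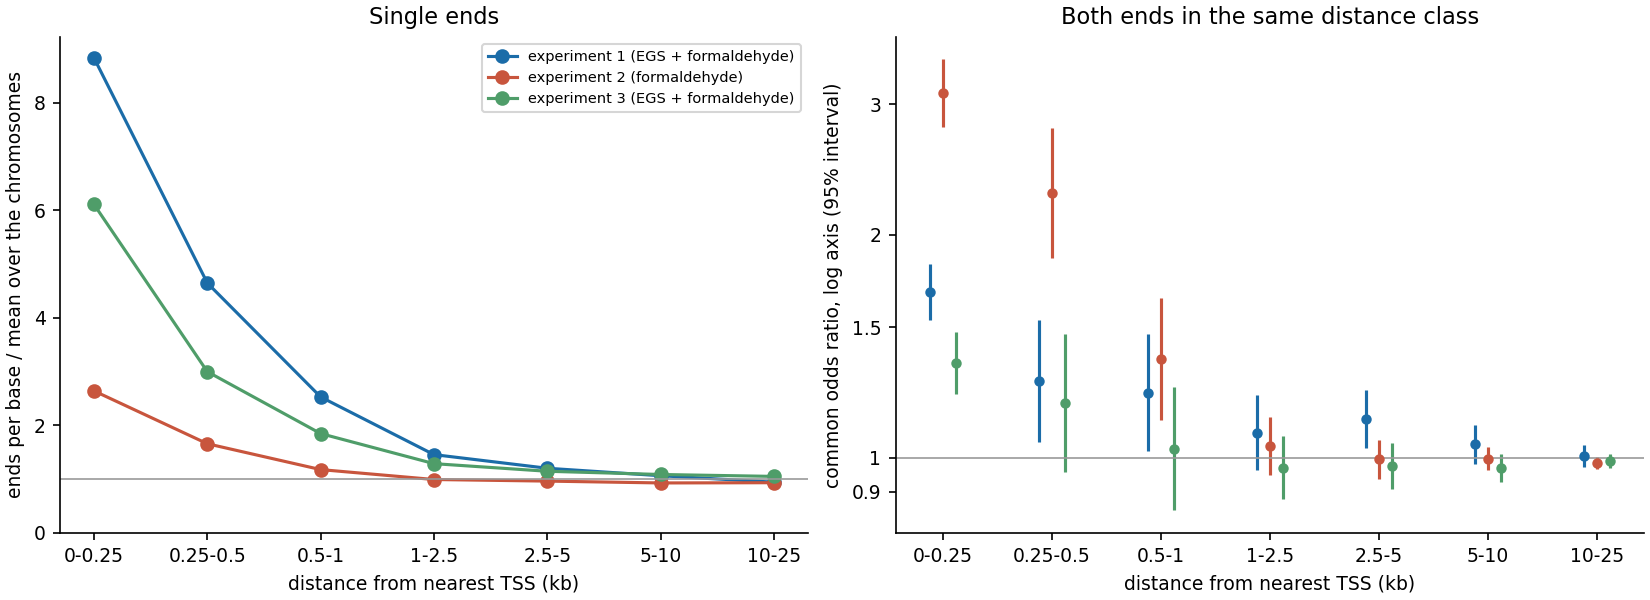
The left panel gives ends per base by distance from the nearest TSS, relative to the mean over the covered chromosomes; the right panel gives the common odds ratio (log axis, 95% intervals) for both ends in the same distance class. Single ends are densest at TSSs in experiment 1 (8.83 times the mean), whereas the odds ratio within 250 bp is highest in experiment 2 (3.10).

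CpG-rich promoters had higher odds ratios than the others in experiments 1 and 2. With both ends at CpG-rich TSSs the odds ratio was 1.51 (1.41 to 1.62), 3.13 (2.88 to 3.40) and 1.25 (1.15 to 1.35). With both at other TSSs it was 1.17 (1.02 to 1.35), 1.31 (1.14 to 1.51) and 1.13 (0.986 to 1.31), and only the value of experiment 2 passed the test (adjusted p = 0.0554, 0.000504 and 0.132). The chi-square test of this difference gave adjusted p-values of 0.00292, 1.77e-24 and 0.243 in experiments 1, 2 and 3.

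Signal at each TSS was read from PETs that are no members, those with both ends within 8 kb on one chromosome, and TSSs were ranked in 3 equal classes by the number of such ends within 1 kb. Of the class with the highest signal 70.6% were CpG-rich, against 20.2% of the class with the lowest. With both ends at high-signal TSSs the odds ratio was 1.39 (1.31 to 1.49), 3.87 (3.60 to 4.17) and 1.32 (1.23 to 1.43). With both at low-signal TSSs it was 0.692 (0.329 to 1.46), 1.16 (0.819 to 1.63) and 0.792 (0.515 to 1.22), from only 7, 33 and 21 PETs. The high-signal odds ratio exceeded the low-signal one 3.35-fold in experiment 2 (interval 2.36 to 4.76; chi-square adjusted p = 1.01e-10). In experiments 1 and 3 the same ratio was 2.01 (interval 0.954 to 4.25; adjusted p = 0.132) and 1.67 (interval 1.08 to 2.59; adjusted p = 0.0649).

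Among high-signal TSSs, CpG content made no detectable difference. The odds ratio was 1.46, 3.82 and 1.30 between CpG-rich ones and 1.34, 3.39 and 1.39 between the others. The ratio of these was 1.09 (0.860 to 1.38), 1.13 (0.847 to 1.51) and 0.935 (0.685 to 1.28), so differences inside those intervals remain possible. Among middle-signal TSSs the odds ratio was 1.64, 1.91 and 1.01 between CpG-rich ones, from 13, 11 and 14 PETs, and 1.21, 0.906 and 0.967 between the others, from 11, 14 and 16 PETs. The ratio of these was 1.35 (0.601 to 3.04), 2.11 (0.955 to 4.68) and 1.04 (0.505 to 2.14), with chi-square adjusted p-values of 0.699, 0.195 and 0.916, so that so few PETs leave a wide range of differences possible. The signal and CpG classes were added after earlier values had been seen.

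**Figure D4:**
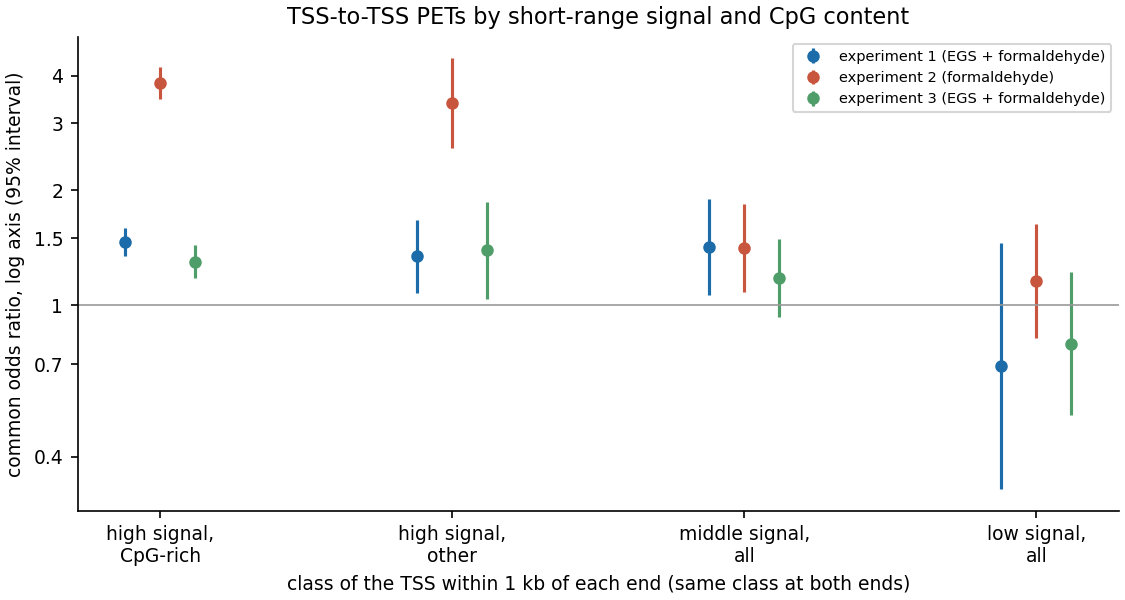
Points are common odds ratios (log axis) with 95% intervals for PETs whose ends both lie within 1 kb of a TSS of the class named, by experiment. High-signal TSSs, CpG-rich or not, stand at 3.82 and 3.39 in experiment 2 and between 1.30 and 1.46 in the other pools, and the intervals of low-signal TSSs include 1.

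The same measure was taken in PETs on one autosome with ends over 10 Mb apart. Their odds ratio for both ends within 1 kb of a TSS was 1.29 (1.04 to 1.59), 2.12 (1.68 to 2.68) and 1.44 (1.18 to 1.75). Between autosomes it was 1.06 (0.851 to 1.32), 1.05 (0.826 to 1.33) and 0.839 (0.686 to 1.03) times these values, with chi-square adjusted p-values of 0.692, 0.692 and 0.268. Within the precision of these counts, no difference between partners on other autosomes and distant partners on the same one was detectable.

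TSS-to-TSS PETs spread over many gene pairs. In experiment 2 the 1491 PETs joined 1491 different gene pairs among 2428 genes, none of them repeated. In experiment 1, 63 of 1844 gene pairs had 2 PETs, and 120 of those 126 PETs shared a read-1 position with another TSS-to-TSS PET. In experiment 3, 4 of 1621 gene pairs had 2 PETs, and all 8 PETs shared a read-1 position. Across pools, 1 gene pair was found in experiments 1 and 2 (Adssl1 with Kank2), 0 in 1 and 3, and 2 in 2 and 3 (Mysm1 with Tprkb and Pawr with Sco2). TSS ends per gene, scaled to the observed number of PETs, gave 0.105, 0.130 and 0.0606 such pairs as the expected values. The exact Poisson intervals of the observed numbers run from 0.0253 to 5.57, 0 to 3.69 and 0.242 to 7.22. The last, for experiments 2 and 3, lies above its expected value, on 2 gene pairs.

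Errfi1 led the TSSs by TSS-to-TSS PETs. It had 93, 84 and 47 ends in experiments 1, 2 and 3, of which 10, 8 and 3 had a partner at another TSS, each of these 21 at a different gene. Its 224 partners fell in 208 bins of 1 Mb on 17 chromosomes, with at most 3 in one bin. Tob1 had 36, 31 and 27 ends, of which 7, 4 and 3 had a partner at a TSS. Tat had 55, 46 and 25 ends, with 3, 4 and 4 TSS partners. These 3 genes stand among the leading ones by this very count, so it supports nothing about them. Alb had 58, 30 and 20 ends with 4, 2 and 2 TSS partners. The pools' shares of ends at TSSs would give 4.06, 0.749 and 0.967 for Alb, and the summed 8 partners, with an exact Poisson interval of 3.45 to 15.8, did not differ detectably from the summed 5.78.

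Ccdc85c and Ube2l6 stood out in another way. In experiment 1, 14 of the 20 ends at the Ccdc85c TSS were the same position, and 14 of the 20 had a partner at a TSS. At the Ube2l6 TSS 15 of 21 ends were the same position, and 9 had a partner at a TSS. In experiments 2 and 3 these TSSs had 2 to 4 ends each. The values of these 2 TSSs therefore rest mostly on 1 position each in 1 pool.

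Genes highly transcribed in liver supplied many ends, and the PETs between them did not differ detectably in number from shuffled partners. Ends of listed genes were counted over the gene body and 2.5 kb either side. Of the 30 listed genes for plasma proteins, lipoproteins and metabolic enzymes, 27 had more ends per kb than the autosome mean in all 3 pools, against 37.5% of all protein-coding genes. The median was 20.9, 3.25 and 6.13 times the mean in experiments 1, 2 and 3, where all genes had 1.15, 1.10 and 1.32. Of 19 clock genes 14 were above the mean in all pools, with medians of 2.16, 1.21 and 2.63. Of 1104 olfactory receptor genes, which are silent in liver, 96 were, with medians of 0.639, 1.01 and 0.648. Hepatocyte markers had medians of 28.2, 3.98 and 8.19, against 0.808 to 2.08 for the markers of stellate, endothelial, Kupffer, lymphocyte and bile duct cells. All 6 hepatocyte markers are also among the 30 liver genes, so they are no separate set.

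The 6 densest of the listed genes were hepatocyte genes. Pck1, the rate-limiting enzyme of gluconeogenesis, had 192, 148 and 39 ends, or 64.9, 13.4 and 6.70 times the mean density. Apoa1, the main protein of high-density lipoprotein, had 94, 80 and 43 ends, or 52.0, 11.9 and 12.1 times the mean. Its flank overlaps that of Apoc3, another listed gene, and ends there count for both. Alb had 371, 138 and 128 ends, or 67.7, 6.77 and 11.9 times the mean. These 3 were highest in experiment 1 in each case. Ahsg, a plasma glycoprotein, stood at 60.9, 8.02 and 9.13, Tat at 48.1, 9.62 and 12.1, and Ttr, the thyroxine carrier transthyretin, at 36.3, 5.65 and 10.2 times the mean. Serpina1a was the lowest, at 4.94, 0.332 and 0.754. It and Serpina1c are near-identical copies, so that its level is uncertain.

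PETs with both ends over liver genes, body and 2.5 kb either side, numbered 9 against 7.61 expected in experiment 1 and 2 against 1.17 in experiment 3. Experiment 2 had 0 against 0.747. The exact Poisson intervals of observed over expected were 0.541 to 2.24, 0 to 4.94 and 0.207 to 6.18, and none passed the Cochran-Mantel-Haenszel test (adjusted p = 0.715, 0.566 and 0.580). The 11 PETs joined 11 different gene pairs, among them Alb with Fgg, Apoe with Ttr, Tat with Ttr and Fgg with Pck1.

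**Figure D5:**
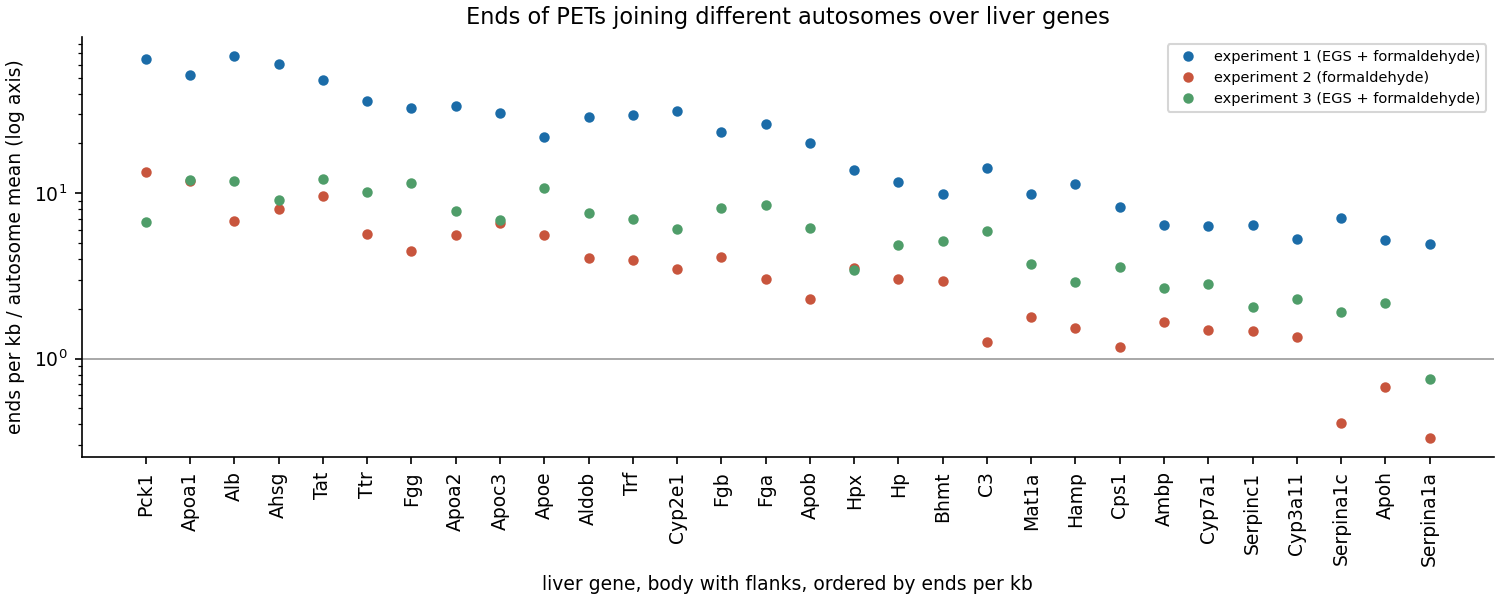
Ends per kb over each of the 30 liver genes, body and 2.5 kb either side, relative to the autosome mean (log axis), by experiment. Genes are ordered by ends per kb summed over pools. Every gene lies above 1 in experiment 1, from 4.94 to 67.7, and 27 of 30 lie above 1 in all 3 pools.

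Few repeated contacts between given places were detectable at this depth. A pair of 1 Mb bins held 0.755 PETs on average. The pair with the lowest p had 9 PETs against 1.06 expected and was not called, so excesses of that size could be missed. No pair of 1 Mb bins on different autosomes was called (0% of 2748450 pairs; one-sided exact Poisson test, at least 3 PETs, lowest adjusted p of 1), with 62755 pairs at an unadjusted p under 0.05. The numbers of bin pairs by PET count stood close to what Poisson counts around the shuffled means give. At least 3 PETs were found in 147370 pairs where 146970 were expected, at least 5 in 7960 where 7867 were expected, and at least 7 in 767 where 707 were expected. With shared read-1 positions collapsed, at least 7 were found in 359 pairs, where 323 were expected.

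With 100 kb bins 15 pairs were called (5.55e-06% of 270132129). In 13 of them all PETs came from experiment 3, in 1 from experiment 1, and in 11 all PETs had a single read-1 position. After collapsing shared read-1 positions 1 pair was called, chr6:94600001-94700000 with chr13:27300001-27400000. It was chosen here after its values were seen, and held 4 PETs against 0.0076 expected (adjusted p = 0.0372), 3 from experiment 2 and 1 from experiment 3, each with its own positions at both ends. The ends spanned 74175 bp over Lrig1, a membrane protein that restrains receptor tyrosine kinases, and 9786 bp at Prl2b1, a prolactin-family gene.

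Sharing of a read-1 position differed widely between pools. It involved 20.1% of members in experiment 1, 0.582% in experiment 2 and 4.39% in experiment 3, with at most 35, 90 and 55 PETs at one position. Read-2 positions were shared by 5.61%, 0.599% and 1.90%. In experiment 2, 51.3% of the PETs that shared a read-1 position had an end in the 5 densest 10 kb bins, which held 0.758% of its members, against 3.31% and 7.44% in experiments 1 and 3. Where exactly 2 PETs shared a read-1 position, their partners lay within 1 kb of each other in 22.0%, 0.509% and 7.25% of cases. Of the remaining cases 6.26%, 5.85% and 6.08% had both partners on the same chromosome. The exact binomial intervals of these shares were 5.93% to 6.61%, 4.66% to 7.23% and 5.64% to 6.55%. The read-2 totals over all autosomes give 5.55%, 5.56% and 5.54%. Those totals include the chromosome of read 1, where the partner of a member cannot lie, so they understate the expected share. An excess over the expected share was therefore not tested. With the partners within 1 kb included, 26.9%, 6.33% and 12.9% of the cases had both partners on one chromosome.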

How the data were processed

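Members were PETs with ends on different autosomes. Positions, chromosomes, linkers and experiment codes were taken from the authors' deposited table, whose columns hold other values than counts; the submitters' processing notes name Bowtie2 and mm10 with no role, positions were read as GRCm38, and the authors' filters were not given in the sources used here. Members and gene lists were chosen with earlier results of these data known. Chromosome-pair numbers were fitted by iterative proportional fitting, and tested by exact Poisson tests and limma 3.58.1 (R 4.3.3) on log2(observed/expected) over 3 pools, Benjamini-Hochberg adjusted, threshold 0.05. Shuffled means are exact, within experiment and linker, without PETs up to 8 kb apart on one chromosome; position classes used strata of linker and ordered chromosome pair. The statistics were tested on simulated data. Chromosome lengths are the largest deposited positions. Named pairs are the 3 most extreme on each side, and named liver and clock genes the 6 with the most ends per kb. PETs of a pool are not biological replicates, and p-values on them measure counting error in that pool.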

Additional observations from a re-analysis of the deposited data

Results flagged for a closer look

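The odds ratio for both ends within 1 kb of a TSS differed between experiments by a test of the difference, and the highest was 1.844 times the lowest (experiment 2 over experiment 3). For both ends within 2.5 kb of a gene boundary the highest odds ratio was 1.144 times the lowest, also past the test. Outside the comparisons above, 119305 PETs joined an autosome and chromosome X, which were not analysed here. With 3 pools, no pool was examined as standing apart from the others.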

How the results depend on the processing

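Ratios in this section are observed over expected PETs, not odds ratios. Of 280 alternative values for 57 results, 105 were of values past the test, of which 94 stayed past it and 0 changed direction. All 156 of values not past the test stayed so, and 25 of these crossed 1, such as both ends near the centromere in experiment 3 (0.981, and 1.12 with 5 Mb) and liver genes in experiment 1 (1.18, and 0.955 with the gene body alone). Of 19 alternative counts 15 stayed within 1.5 times. limma called 1 pair with unshared positions only (11 with 17, mean log2 ratio 0.06), and 0 to 1 pairs when an experiment was left out (15 with 18, mean -0.08, without experiment 2). Gene-rich ends no longer passed with 2 equal classes of windows in experiments 2 and 3 (1.002 and 1.001), with 250 kb windows in experiment 3 (1.001), or with neither end near a boundary (observed/expected of 1.007, 1.0004 and 1.006, against 1.018, 1.005 and 1.005 over all members). Gene-poor ends in experiment 3 no longer passed with 250 kb windows (1.008), 2 equal classes (1.001) or neither end near a boundary (1.005). With linker subset 1 alone, other TSSs in experiment 2 (1.21) and CpG-rich TSSs in experiment 3 (1.13) did not pass. With both linkers these ratios were 1.30 and 1.23. With linker subset 2 alone both passed, at 1.34 and 1.32. Whether the linker subsets differ in these classes was not tested. Called bin pairs were 15 with 100 kb bins and 1 with these collapsed. Without the 100 TSSs with the most ends, TSS-to-TSS ratios were 1.306, 2.013 and 1.184 in experiments 1, 2 and 3. With all TSSs they were 1.295, 2.083 and 1.182. Other TSSs in experiment 1 had 1.09 with shared positions collapsed (Cochran-Mantel-Haenszel adjusted p = 0.371), against 1.16 without collapsing. The TSS, CpG and signal classes and the linker subsets were chosen after seeing the data. No paired analysis was possible because the table's columns carry no library or replicate number. Depth limits a single chromosome pair to departures above a few percent.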
